A study of Homo sapiens with 15 samples.

Results

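The comparison described here is that of H9, a long-established line of human embryonic stem cells, exposed to the higher of the 2 doses of a NIST standard reference material (SRM), against vehicle controls. It uses 6 of the 15 libraries of the series, 3 per group. All cultures were wild type, were differentiated toward bone and were harvested at day 7. They were kept in medium with 15% serum, in which stem cells differentiate spontaneously, and from day 5 were given ascorbic acid, β-glycerophosphate and the active form of vitamin D3. The SRM_IC50 cultures received particles at 5.9 µg/mL from day 0, and the controls (UNT) received DMSO at 0.1%. The labels describe the dose as a half-inhibitory concentration set on protein content. The genes described are those with a CPM (counts per 1e6 counts of the library) of at least 1 in 3 of the 6 libraries, which holds for 15316 of the 60675 genes listed. All cultures come from 1 cell line, and the labels do not say whether the 3 replicates of a group were separate cultures, so p-values measure the spread between these libraries, which may be technical.

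Human embryonic stem cells leave the pluripotent state within days in serum and give mixed cultures that can hold amnion-like, epithelial, mesodermal, neural and neural crest cells. Bone-forming cells arise from mesoderm or from neural crest, under the control of RUNX2 and SP7 and, in the face, of DLX, MSX and ALX homeobox factors. BMP, WNT, FGF, Nodal and retinoic acid are the signals that divide these fates. Airborne particles can carry polycyclic aromatic hydrocarbons, which activate the aryl hydrocarbon receptor, and metals, which act on metallothionein and antioxidant genes. In bulk RNA, fewer cells of a type and less RNA per cell cannot be told apart.

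The libraries held 17294612 to 20084912 counts in UNT and 12042969 to 29250346 at SRM_IC50, and a floor of 3 counts was 0.103 to 0.249 CPM. A principal component with 61.7% of the variance of log2 CPM separated the groups. A further component, with 26.6%, and the deviations of each library along gene length ran from replicate 1 to replicate 3 in both groups. In UNT replicate 2 lay between the others, and at SRM_IC50 it lay nearer to replicate 1, so that replicate 3 stood apart. The Spearman correlation of these deviations with length was 0.46, -0.001 and -0.478 in UNT 1 to 3. It was 0.469, 0.362 and -0.512 in SRM_IC50 1 to 3. The 2 marker lists set aside here moved in opposite directions. Of 19 tested pluripotency genes 14 were higher and none lower, and of 28 tested amnion and trophoblast genes 26 were lower and none higher. The summed CPM of the amnion and trophoblast genes was 2472 to 2920 in UNT and 667.5 to 742.1 at SRM_IC50. These shifts accompany every group described below, and their part in those results was not tested.

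At SRM_IC50, 996 genes were higher and 1244 lower than in UNT by edgeR's quasi-likelihood F test with a Benjamini-Hochberg adjusted p under 0.05. That is 14.6% of genes tested, with 6.5% higher and 8.12% lower, and every count of list members from this fit is to be read against these shares. Over all genes tested the median log2 fold change was 0.006. Of the called genes 346 were over 2-fold higher and 543 over 2-fold lower, and in all 2240 the 3 SRM_IC50 libraries lay outside the range of the 3 UNT libraries. With 3 libraries per group a call favours such genes, so this separation adds no support to the calls. The counts moved with single libraries. Without UNT 2 the numbers were 424 higher and 743 lower, without UNT 3 613 higher and 943 lower, without SRM_IC50 1 564 higher and 884 lower, and without SRM_IC50 2 491 higher and 737 lower. The calls of 384 higher and 681 lower genes held with each library left out in turn. Of 18 list counts of a single gene, 13 were 0, 2 or more without 1 of the libraries. Exons of 732 of the called genes overlap exons of a gene on the opposite strand. The same holds for 6041 of all genes tested. Of these 6041 genes 4.97% were called higher and 7.15% lower, against 6.5% and 8.12% over all genes tested. The sources used here do not say whether counting used strand, so the values of such genes are uncertain, and they are named as overlapping below.

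**Figure D1:**
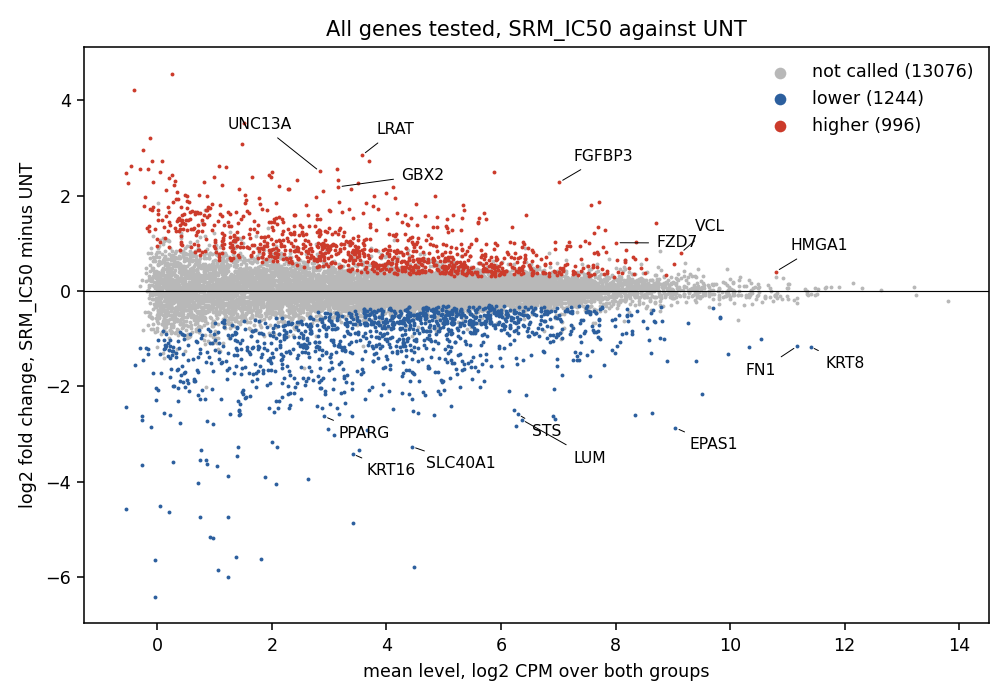
Log2 fold change (SRM_IC50 minus UNT) against the mean log2 CPM of both groups for the 15316 genes tested, with 996 called higher in red, 1244 called lower in blue and the rest in grey. Named points include EPAS1 and KRT8 among abundant genes that were lower and FGFBP3 and FZD7 among those that were higher.

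Among protein-coding genes outside the 2 lists set aside, with a mean of at least 5 CPM and no overlap between groups, the largest rises were in a mixed set of enzymes, signalling genes and neural genes. LRAT, which esterifies retinol for storage (ENSG00000121207, GRCh38 chromosome 4, 154626945 to 154753118), was at 2.92, 3.50 and 2.28 CPM in UNT 1 to 3 and at 23.0, 17.8 and 22.1 CPM in SRM_IC50 1 to 3. The groups lay far apart, and the log2 fold change was 2.85 (SE 0.183, edgeR adjusted p = 0.000125). FGFBP3, which binds and releases fibroblast growth factors, was at 41.4, 49.9 and 41.5 CPM in UNT and 205, 200.1 and 240.2 CPM at SRM_IC50, a log2 fold change of 2.28. UNC13A, which primes synaptic vesicles, was at 2.63, 2.24 and 1.56 CPM in UNT and 15.5, 11.99 and 8.92 CPM at SRM_IC50 (log2 2.51). The other genes of this group were TM4SF18 (log2 2.33), FOXB1 (2.33), PIPOX (2.27), GBX2 (2.18), GAL (2.14), SEZ6 (2.10), GNA14 (2.05), CXCL5 (1.99) and KDR (1.98). FOXB1 and GBX2 encode transcription factors of the early neural plate, GAL the neuropeptide galanin, CXCL5 a chemokine and KDR a receptor for vascular endothelial growth factor. SEZ6 lost its call without UNT 2 (edgeR adjusted p = 0.0555). Exons of FGFBP3, TM4SF18, PIPOX and GBX2 overlap exons of an opposite gene.

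The largest falls, on the same terms, were also in a mixed set, with keratins, an iron exporter and a steroid enzyme among its members. KRT16, a stress-inducible epithelial keratin, was at 16.9, 18.3 and 23.0 CPM in UNT and 1.87, 1.54 and 2.06 CPM at SRM_IC50 (log2 -3.42, SE 0.182, edgeR adjusted p = 7.55e-05). SLC40A1, the iron exporter ferroportin (chromosome 2, 189560579 to 189583758), was at 39.2, 38.3 and 41.1 CPM in UNT and 4.05, 4.53 and 3.60 CPM at SRM_IC50 (log2 -3.27, SE 0.117, edgeR adjusted p = 2.89e-05). Both groups were tight for SLC40A1, with UNT near 40 CPM and SRM_IC50 near 4 CPM in each library. EPAS1, a hypoxia-inducible transcription factor (chromosome 2, 46293667 to 46386703), fell from 1023, 862 and 907 CPM to 139, 121 and 120 CPM. Its log2 fold change was -2.88. KRT23 (log2 -3.03), CCN4 (-2.91), PLSCR5 (-2.90), PAPPA2 (-2.84), LUM (-2.70), PPARG (-2.63), GUCY1A1 (-2.63), STS (-2.59) and IL1R1 (-2.58) completed the set. PAPPA2 cleaves IGF-binding proteins, GUCY1A1 is a subunit of the nitric oxide receptor guanylate cyclase, and STS removes sulphate from steroids. Exons of KRT23, PLSCR5 and IL1R1 overlap exons of an opposite gene.

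By absolute difference, again on these terms, the genes that fell most were KRT8, EPAS1, FN1, KRT18, TPM1 and AHNAK. KRT8 was at 3204, 3712 and 4371 CPM in UNT and 1557, 1451 and 2000 CPM at SRM_IC50, and its partner KRT18 at 1509, 1754 and 2102 CPM and 742, 704 and 923 CPM. TPM1, a tropomyosin, was at 1678, 2000 and 2275 CPM in UNT and 940, 907 and 1119 CPM at SRM_IC50. FN1, which encodes fibronectin, was -1.16 (edgeR adjusted p = 0.0148), and lost its call without UNT 2 (0.0663) or SRM_IC50 2 (0.0752). AHNAK was at 1852, 1422 and 996 CPM in UNT and 779, 588 and 334 CPM at SRM_IC50, so that its libraries spread widely within both groups. It lost its call without UNT 1 (edgeR adjusted p = 0.081), UNT 2 (0.117) or SRM_IC50 2 (0.118). Among the genes that rose most in CPM, FZD7, a WNT receptor, was at 174, 177 and 162 CPM and 335, 341 and 359 CPM (log2 1.01, SE 0.0882, edgeR adjusted p = 0.000327), and TUBB2B, a tubulin, had a log2 fold change of 1.03. Also in this group, HMGA1 (log2 0.41), VCL (0.80) and NES (0.56) each lost the call without any of UNT 2, UNT 3, SRM_IC50 1 or SRM_IC50 2 (edgeR adjusted p up to 0.144, 0.105 and 0.0715), and HMGA1 also without UNT 1 (0.0804). Exons of KRT8, KRT18, TPM1, VCL and TUBB2B overlap exons of an opposite gene.

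Promoters of called and other genes were compared by the motifs they hold, in 300-base windows from 250 bases before to 50 after a start (RefSeq, GRCh38.p14). Symbols of 11493 tested genes matched the table, with several starts for some genes. The ETS motif CCGGAAG, on either strand, was in 5.9% of 1118 promoters of higher genes and 6.9% of 1440 promoters of lower genes, against 17.4% of 14331 promoters of genes not called and 10.3% of all 35116 promoters in the table. The NRF1 motif, GCGC and GCGC with any 2 bases between, was in 6.9%, 8.8%, 14.1% and 8.3% of the same sets. Both motifs are typical of widely expressed genes, and both were rarer in the called genes in either direction. The TATA motif TATAAA was in 9.2%, 9.5%, 5.9% and 11.5%, and the GATA motif AGATAA in 6.3%, 8.3%, 5.7% and 10.3%. The GC box GGGCGG was in 64.4% of promoters of higher, 56.4% of lower and 66.2% of not called genes, and the promoters' mean GC content was 64.2% in higher, 61.7% in lower and 63.6% in not called genes. The dioxin response core TNGCGTG, to which the aryl hydrocarbon receptor can bind, was in 5.2%, 5.3%, 7.1% and 5.5%. A match is a string of letters in this window and shows no binding.

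Windows of 4 named genes are printed because they differ in the motif held and in direction, with the motif in capitals on either strand. Where a gene has several starts, the window taken was the first listed that holds the motif. STS and PPARG, which were lower, hold the GATA letters. CHGA, which encodes chromogranin A of neuroendocrine granules, and GAD1, which makes the transmitter GABA, were higher and hold the cyclic AMP response letters TGACGTCA and the TATA letters. The windows lie at chrX:7219206-7219505 (STS), chr3:12301725-12302024 (PPARG), chr14:92922900-92923199 (CHGA) and chr2:170816637-170816936 (GAD1), all on the plus strand.
STS: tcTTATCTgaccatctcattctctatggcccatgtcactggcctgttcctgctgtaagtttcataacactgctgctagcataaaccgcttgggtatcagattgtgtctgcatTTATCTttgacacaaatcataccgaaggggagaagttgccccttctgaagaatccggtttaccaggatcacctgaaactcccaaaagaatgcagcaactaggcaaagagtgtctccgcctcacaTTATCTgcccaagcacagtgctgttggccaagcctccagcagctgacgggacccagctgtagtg
PPARG: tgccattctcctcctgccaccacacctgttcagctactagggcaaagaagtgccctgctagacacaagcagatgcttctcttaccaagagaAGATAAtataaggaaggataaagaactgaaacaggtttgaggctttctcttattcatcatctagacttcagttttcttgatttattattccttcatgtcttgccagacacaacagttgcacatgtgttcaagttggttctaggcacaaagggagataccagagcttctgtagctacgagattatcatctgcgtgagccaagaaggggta
CHGA: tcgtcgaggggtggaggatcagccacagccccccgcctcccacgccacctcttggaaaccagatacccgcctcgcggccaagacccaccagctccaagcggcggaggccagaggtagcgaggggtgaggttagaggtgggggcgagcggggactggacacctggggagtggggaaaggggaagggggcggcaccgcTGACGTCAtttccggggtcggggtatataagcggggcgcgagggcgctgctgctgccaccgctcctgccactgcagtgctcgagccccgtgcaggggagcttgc
GAD1: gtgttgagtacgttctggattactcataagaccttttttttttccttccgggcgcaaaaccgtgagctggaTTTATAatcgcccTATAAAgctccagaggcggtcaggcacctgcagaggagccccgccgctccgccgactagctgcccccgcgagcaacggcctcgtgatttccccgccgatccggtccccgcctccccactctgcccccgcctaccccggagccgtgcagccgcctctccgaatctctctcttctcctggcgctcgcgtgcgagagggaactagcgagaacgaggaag
STS was at 142, 125 and 136 CPM in UNT and 23.3, 21.9 and 21.9 CPM at SRM_IC50, and its window holds 3 matches. PPARG, the regulator of fat cell formation, was at 12.7, 12.3 and 13.6 CPM in UNT and 1.97, 1.84 and 2.57 CPM at SRM_IC50, with 1 match. CHGA was at 0.389, 0.402 and 0.420 CPM in UNT and 1.77, 2.04 and 2.40 CPM at SRM_IC50, with its match starting 54 bases before the start. GAD1 rose from 10.1, 12.2 and 9.54 CPM to 25.2, 23.0 and 23.9 CPM. Its window holds 2 matches, the first starting 179 bases before the start. In each of the 4 genes, as in every called gene, the groups did not overlap. Exons of GAD1 overlap exons of an opposite gene.

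Genes of simple epithelium fell together. Of 39 tested members of a list of keratins, claudins, desmosome and adherens junction genes, 29 were lower and none higher, with a median log2 fold change of -0.84 against 0.006 over all genes. The list's summed level was 10420 to 13030 CPM in UNT and 5369 to 6503 CPM at SRM_IC50, while the amnion and trophoblast genes, which include KRT7, fell beside it. PKP2, a desmosomal plakophilin, was at 227, 239.9 and 243 CPM in UNT and 98.2, 89.4 and 98.0 CPM at SRM_IC50 (log2 -1.31, SE 0.0881, edgeR adjusted p = 0.000131). CDH1, which encodes E-cadherin, was at 385, 364 and 338 CPM and then 207, 194 and 178 CPM (log2 -0.91), and the groups of both genes were separate by a wide margin. CDH3, P-cadherin, was -1.44, PKP3 -1.72, SPINT1, a protease inhibitor of epithelia, -0.85 and CLDN10, a claudin of tight junctions, -1.13 on the log2 scale. ESRP1, which directs epithelial splicing, was -0.74. EPCAM (log2 -0.74) lost its call without UNT 2, UNT 3, SRM_IC50 1 or SRM_IC50 2 (edgeR adjusted p up to 0.149). Of 9 tested keratins 8 were lower and none higher, with a median of -1.47. KRT19 was at 768, 991 and 1214 CPM in UNT and 312, 297 and 461 CPM at SRM_IC50, and KRT80 had a log2 fold change of -1.85. Exons of CDH1, CDH3, SPINT1, CLDN10 and KRT7 overlap exons of an opposite gene.

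Surface ectoderm, from which epidermis forms, followed the same direction. Of 21 tested members 15 were lower and 1 was higher, with a median of -0.90 and a summed level of 1126 to 1218 CPM in UNT and 713.7 to 730.1 CPM at SRM_IC50. GRHL2, a grainyhead factor that maintains epithelial identity, was at 91.4, 83.9 and 79.0 CPM in UNT and 32.0, 29.3 and 23.2 CPM at SRM_IC50 (log2 -1.58, SE 0.135, edgeR adjusted p = 0.000322). GRHL1 (-1.67), OVOL1 (-2.35), the desmosome protein gene PERP (-1.07) and the integrin gene ITGB4 (-1.30) fell as well. TP63, the master regulator of stratified epithelium, was at 16.8, 16.9 and 15.4 CPM in UNT and 10.2, 11.1 and 8.92 CPM at SRM_IC50 (log2 -0.69). The keratins of basal epidermis were near the floor throughout. KRT5 did not exceed 0.0578 CPM in UNT or 0.137 CPM at SRM_IC50, and KRT14 lay between 0.149 and 0.174 CPM in UNT and between 0.0684 and 0.102 CPM at SRM_IC50, so the defining epidermal keratins were hardly detected in either group. Exons of OVOL1 and GRHL2 overlap exons of an opposite gene.

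**Figure D2:**
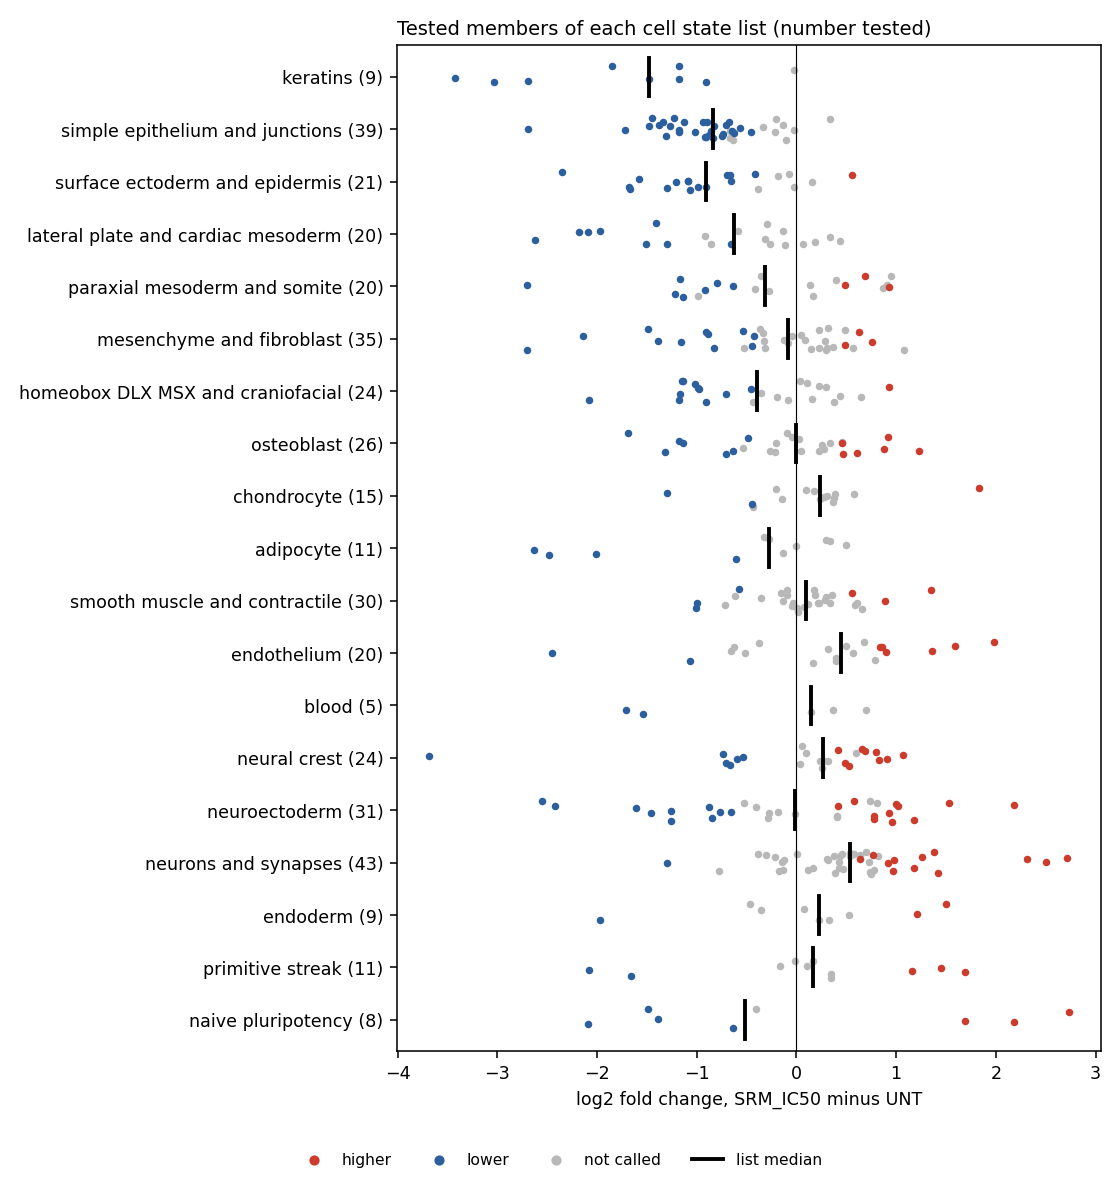
Log2 fold change (SRM_IC50 minus UNT, x axis) of the tested members of 19 cell state lists, with members called higher in red, lower in blue, those not called in grey and the list median as a black bar. The medians of the keratin (-1.47), surface ectoderm (-0.90) and simple epithelium (-0.84) lists lie lowest, that of neurons and synapses (0.54) lies highest, and the neuroectoderm list spreads to both sides.

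Genes of lateral plate and cardiac mesoderm were lower where they were called. Of 20 tested members 8 were lower and none higher, with a median of -0.62 and a summed level of 864.8 to 1018 CPM in UNT and 481 to 597.8 CPM at SRM_IC50. MEIS1, a homeobox cofactor, was at 44.2, 39.1 and 42.5 CPM in UNT and 10.6, 9.55 and 7.12 CPM at SRM_IC50 (log2 -2.18, SE 0.150, edgeR adjusted p = 0.000137). TBX3, a T-box factor of limb and heart, was at 49.98, 51.9 and 54.2 CPM and then 12.1, 12.7 and 11.8 CPM, and GATA6 had a log2 fold change of -1.97. HAND1 and ISL1, which the amnion and trophoblast list also holds, were -2.62 and -1.29. HAND2 (0.548 to 0.925 CPM in UNT and 0.581 to 0.996 CPM at SRM_IC50) was below the level needed for testing, so a defining marker of this state was hardly present. Of 20 tested paraxial mesoderm and somite genes 7 were lower and 3 higher, with a median of -0.31. The number higher was 0 without UNT 2, 1 without SRM_IC50 1 or SRM_IC50 2 and 6 with DESeq2. EYA1 (-1.17), EYA2 (-1.14), FOXC1 (-0.92), DLL1 (-0.64) and MEOX1 (-0.80) fell, whereas TBX6, which specifies presomitic mesoderm, was at 1.12 to 1.89 CPM over the 6 libraries, with overlapping groups, and was not called. TBXT, the defining gene of the primitive streak, was at 0.684 CPM or less in every library. Exons of MEIS1, GATA6 and EYA1 overlap exons of an opposite gene.

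Mesenchyme genes and the extracellular matrix changed in both directions. Of 35 tested mesenchyme and fibroblast genes 11 were lower and 3 higher, with a median of -0.09, and the number lower was 6 without UNT 2, 7 without UNT 3 and 6 without SRM_IC50 2, and that higher 5 without SRM_IC50 3. LUM, which encodes lumican, was at 116, 149.7 and 162 CPM in UNT and 19.96 to 25.1 CPM at SRM_IC50. DCN, which encodes decorin, was at 25.8, 31.5 and 36.7 CPM and then 6.32, 6.62 and 8.66 CPM. POSTN, the gene of the matrix protein periostin, was -1.49, FBLN1 -0.90 and the gelatinase gene MMP2 -0.82. THY1, a surface antigen of mesenchymal and pluripotent cells, rose from 63.7, 61.0 and 65.4 CPM to 110.1, 99.3 and 113 CPM (log2 0.76, SE 0.0911, edgeR adjusted p = 0.00135). The transcription factor gene PRRX1 was at 9.53, 10.7 and 10.4 CPM in UNT and 11.97, 14.3 and 11.6 CPM at SRM_IC50 and was not called (log2 0.30, edgeR adjusted p = 0.165), and neither was PDGFRB (-0.32, edgeR adjusted p = 0.262). Exons of THY1 overlap exons of an opposite gene.

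Of 34 tested collagen genes 9 were lower and 4 higher, although the median of all 34 was 0.14, and the number lower was 4 without UNT 2 and 5 without SRM_IC50 2. The number higher was 1 without UNT 2, 2 without UNT 3, SRM_IC50 1 or SRM_IC50 2 and 8 without SRM_IC50 3. COL3A1, a fibrillar collagen, was at 211, 242 and 244 CPM in UNT and 98.9, 82.0 and 90.9 CPM at SRM_IC50 (log2 -1.36), and COL6A3 had a log2 fold change of -1.52. COL8A1 was higher (0.94). Of 54 tested matrix proteases and their inhibitors 16 were lower and 10 higher. ADAMTS18 was at 49.1, 48.8 and 47.0 CPM in UNT and 12.2, 11.2 and 10.3 CPM at SRM_IC50, and the cathepsin gene CTSV had a log2 fold change of -1.48. TIMP3, an inhibitor bound to the matrix, was at 282, 278 and 316 CPM and then 86.4, 74.3 and 94.1 CPM. PLAU, the protease urokinase that activates plasminogen, rose. It was at 45.6, 49.2 and 46.2 CPM in UNT and 98.5, 90.1 and 100.3 CPM at SRM_IC50 (log2 1.03, SE 0.0899, edgeR adjusted p = 0.000322). MMP25, a membrane-anchored metalloproteinase, was 2.40. Of 41 tested proteoglycan and glycosaminoglycan genes 9 were higher and 10 lower. The higher number was 5 without UNT 2, SRM_IC50 1 or SRM_IC50 2, and the lower number 6 without SRM_IC50 2. HAPLN1, the link protein of cartilage and neural matrix, fell from 509, 577 and 588 CPM to 218, 236 and 229 CPM, and the neural proteoglycan genes CSPG5 (1.61) and GPC2 (0.79) rose. Of 33 tested integrin, laminin and basement membrane genes 7 were lower and 4 higher, with ITGB6 (-1.76), ITGB5 (-0.72) and NID2 (-0.74) lower and LAMC3 (1.69) higher. The number higher was 1 without UNT 2, SRM_IC50 1 or SRM_IC50 2, 2 without UNT 3 and 0 of 25 by limma-trend on FPKM. Exons of ADAMTS18, PLAU, MMP25 and NID2 overlap exons of an opposite gene.

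Neuroectoderm genes changed in both directions. Of 31 tested members 11 were higher and 10 lower, with a median of -0.01, and the number higher was 6 without UNT 2 or SRM_IC50 2. Regulators of the eye field were among those that fell. RAX, which specifies the eye field, was at 32.3, 40.7 and 46.9 CPM in UNT and 8.73, 5.72 and 5.49 CPM at SRM_IC50 (log2 -2.55, SE 0.217, edgeR adjusted p = 0.000321). PAX6, a regulator of eye and forebrain (chromosome 11, 31784779 to 31818062), was at 153, 137 and 161 CPM and then 64.1, 65.7 and 58.2 CPM, a log2 fold change of -1.26. SIX3, another eye field and forebrain factor, fell too (-1.26). In these 3 genes, as in every called gene, no library of one group reached the range of the other. GBX2, which marks the hindbrain side of the midbrain boundary and is also expressed in pluripotent cells, was at 3.11, 3.39 and 3.12 CPM in UNT and 13.1, 14.8 and 16.04 CPM at SRM_IC50. SOX2, a factor of neural and pluripotent cells that the pluripotency list also holds, had a log2 fold change of 1.00. OTX2 (-0.18, edgeR adjusted p = 0.337) and SOX1 (0.74, edgeR adjusted p = 0.105) were not called. Exons of PAX6 and GBX2 overlap exons of an opposite gene.

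Of 43 tested genes of neurons and synapses 12 were higher and 1 was lower, with a median of 0.54, and the number higher was 7 without UNT 2. NEFL, a neurofilament gene, was at 16.5, 19.5 and 19.1 CPM in UNT and 35.6, 34.8 and 38.0 CPM at SRM_IC50 (log2 0.98, SE 0.104, edgeR adjusted p = 0.000798). SNCB, which encodes β-synuclein, was at 0.243 to 0.2999 CPM in UNT and 1.19 to 2.21 CPM at SRM_IC50, and ISL1 was the member that fell. Pan-neuronal markers did not pass the test. TUBB3 was at 0.778, 0.804 and 0.780 CPM and then 1.57, 1.15 and 1.29 CPM (log2 0.78, edgeR adjusted p = 0.0675), DCX had a log2 fold change of 0.70 (adjusted p = 0.0895) and ELAVL3 of 0.73 (0.152). The list as a whole summed to 447.6 to 525.2 CPM in UNT and 588 to 629.4 CPM at SRM_IC50. Of 76 tested potassium, sodium and calcium channel genes 14 were higher and 8 lower. That higher number was 4 without UNT 2, 5 without UNT 3, SRM_IC50 1 or SRM_IC50 2, and 9 with offsets for GC content. CACNG7, a calcium channel subunit, was higher (1.13), and KCNMA1, the large-conductance potassium channel, fell from 38.0, 34.0 and 40.5 CPM to 11.3, 9.51 and 9.26 CPM. Exons of NEFL, GAD1 and KCNMA1 overlap exons of an opposite gene.

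Neural crest genes changed in both directions. Of 24 tested members 9 were higher and 6 lower, with a median of 0.27. The numbers were 4 higher and 4 lower without UNT 2, 4 and 5 without SRM_IC50 1 and 5 and 4 without SRM_IC50 2. FOXD3, which specifies early crest and which the pluripotency list also holds, was at 30.8, 27.8 and 33.4 CPM in UNT and 55.3, 56.1 and 82.0 CPM at SRM_IC50 (log2 1.07, SE 0.171, edgeR adjusted p = 0.00532). NGFR, a surface receptor of crest cells, was at 60.9, 55.8 and 49.0 CPM and then 98.2, 95.2 and 94.1 CPM, and SOX8 had a log2 fold change of 0.91. SOX10 (0.66, edgeR adjusted p = 0.0274) lost its call without UNT 2, UNT 3, SRM_IC50 1 or SRM_IC50 2 (adjusted p up to 0.13), and PAX3 (0.69) without UNT 2, SRM_IC50 1 or SRM_IC50 2 (up to 0.0882). DCT, a melanin enzyme of pigment cells, was at 3.60, 4.14 and 3.78 CPM in UNT and 0.268, 0.348 and 0.257 CPM at SRM_IC50, a log2 fold change of -3.68, and EDNRB was -0.74. Exons of FOXD3, NGFR, SOX10 and EDNRB overlap exons of an opposite gene.

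Naive pluripotency genes moved in both directions, with 3 of 8 tested members higher and 4 lower. PRDM14, which represses differentiation genes in pluripotent and germ cells and which the pluripotency list set aside also holds, was at 3.50, 4.08 and 2.52 CPM in UNT and 25.9, 21.1 and 20.2 CPM at SRM_IC50 (log2 2.73, SE 0.189, edgeR adjusted p = 0.000137). KLF4 (-1.49), KLF5 (-0.63), TFCP2L1 (-1.38) and TBX3 (-2.09), factors that are also expressed in epithelia or mesoderm, fell. KLF17, the gene read most often for the human naive state, had at most 1 count in any library. Of 11 tested primitive streak genes 3 were higher (1 without UNT 2 or SRM_IC50 1) and 2 lower. SP5 was higher, CDX1 (-1.65) and CDX2 (-2.08) were lower, and MIXL1 (-0.16) and EOMES (0.35) were not called.

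Homeobox factors of the facial skeleton were lower where they were called, with 1 exception. In a list of DLX, MSX, ALX and related craniofacial genes 11 of 24 tested members were lower and 1 was higher, with a median of -0.40. DLX5 was at 18.7, 21.4 and 18.3 CPM in UNT and 9.39, 7.51 and 9.69 CPM at SRM_IC50 (log2 -1.14, SE 0.135, edgeR adjusted p = 0.00134), and DLX6 (-1.17), DLX3 (-1.15), ALX1 (-1.02), MSX2 (-0.70) and EYA1 (-1.17) also fell. MSX1 was not called (0.03). The osteoblast list was divided, with 6 higher and 7 lower of 26 tested and a median of -0.01, and the number higher was 2 without UNT 2 and 3 without SRM_IC50 1 or SRM_IC50 2. PTH1R, the parathyroid hormone receptor, was at 15.02 to 19.4 CPM in UNT and 4.95, 5.23 and 5.92 CPM at SRM_IC50 (log2 -1.69). TNFRSF11B, which encodes osteoprotegerin, was at 4.28, 5.00 and 4.68 CPM and then 10.9, 10.7 and 11.2 CPM (log2 1.23). ALPL, an alkaline phosphatase of mineralising and of pluripotent cells, was at 94.8, 83.1 and 81.7 CPM in UNT and 164, 161 and 151 CPM at SRM_IC50. RUNX2 was at 5.35, 4.71 and 5.82 CPM and then 3.68, 3.43 and 3.86 CPM, so that the groups did not overlap, but it was not called (log2 -0.54, edgeR adjusted p = 0.0509). SP7 (0.92, edgeR adjusted p = 0.0379) stayed at 1.74 CPM or less in every library and lost its call without any of UNT 1 to 3 or SRM_IC50 1 or 2 (up to 0.15). Cartilage genes were mostly not called, with 1 higher and 2 lower of 15 tested (1 lower without UNT 2, UNT 3 or SRM_IC50 2), and SOX9 (0.23) and COL2A1 (-0.43) were not called. Exons of EYA1 overlap exons of an opposite gene.

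Endothelial genes were divided. Of 20 tested 6 were higher and 2 lower, with a median of 0.45. The number higher was 3 without UNT 2 or SRM_IC50 1, 2 without SRM_IC50 2 and 10 with DESeq2, and the number lower 4 without SRM_IC50 3 or with DESeq2. KDR, expressed in mesoderm and in pluripotent cells as well as in endothelium (chromosome 4, 55078259 to 55125595), was at 15.1, 11.8 and 7.86 CPM in UNT and 54.3, 47.8 and 35.4 CPM at SRM_IC50. Its log2 fold change was 1.98 (SE 0.249, edgeR adjusted p = 0.00173), and APLN, a ligand of endothelial growth, was 1.59. TEK, an angiopoietin receptor, was at 34.4, 30.7 and 25.9 CPM and then 60.3, 58.6 and 43.2 CPM (0.84, edgeR adjusted p = 0.0118), a call lost without UNT 2 (0.0644) or SRM_IC50 2 (0.0595). Its relative TIE1 (1.36, edgeR adjusted p = 0.0222) lost its call without UNT 2, UNT 3, SRM_IC50 1 or SRM_IC50 2 (up to 0.0999). PECAM1 was at 0.116 to 0.283 CPM in UNT and 0.137 to 0.498 CPM at SRM_IC50, below the level needed for testing. CDH5, the cadherin of endothelial junctions, was at 5.01, 6.72 and 4.98 CPM and then 3.44, 3.09 and 4.20 CPM and was not called (-0.66, edgeR adjusted p = 0.0595), and SOX7 fell by 2.45 on the log2 scale. Blood genes were scarce, with GATA1 at 0 counts in every library and PTPRC at 0.083 CPM or less. RUNX1 was at 15.7, 12.6 and 12.2 CPM in UNT and 5.38, 4.78 and 3.52 CPM at SRM_IC50. Among fat cell genes PPARG and CEBPA, the pair of factors that drive adipogenesis, both fell. CEBPA was at 22.4, 27.9 and 37.2 CPM and then 5.18, 4.38 and 6.26 CPM (log2 -2.48), while FABP4, the marker of mature fat cells, had 0 counts in every library. In this list 4 of 11 tested members were lower and none higher. Exons of CEBPA overlap exons of an opposite gene.

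**Figure D3:**
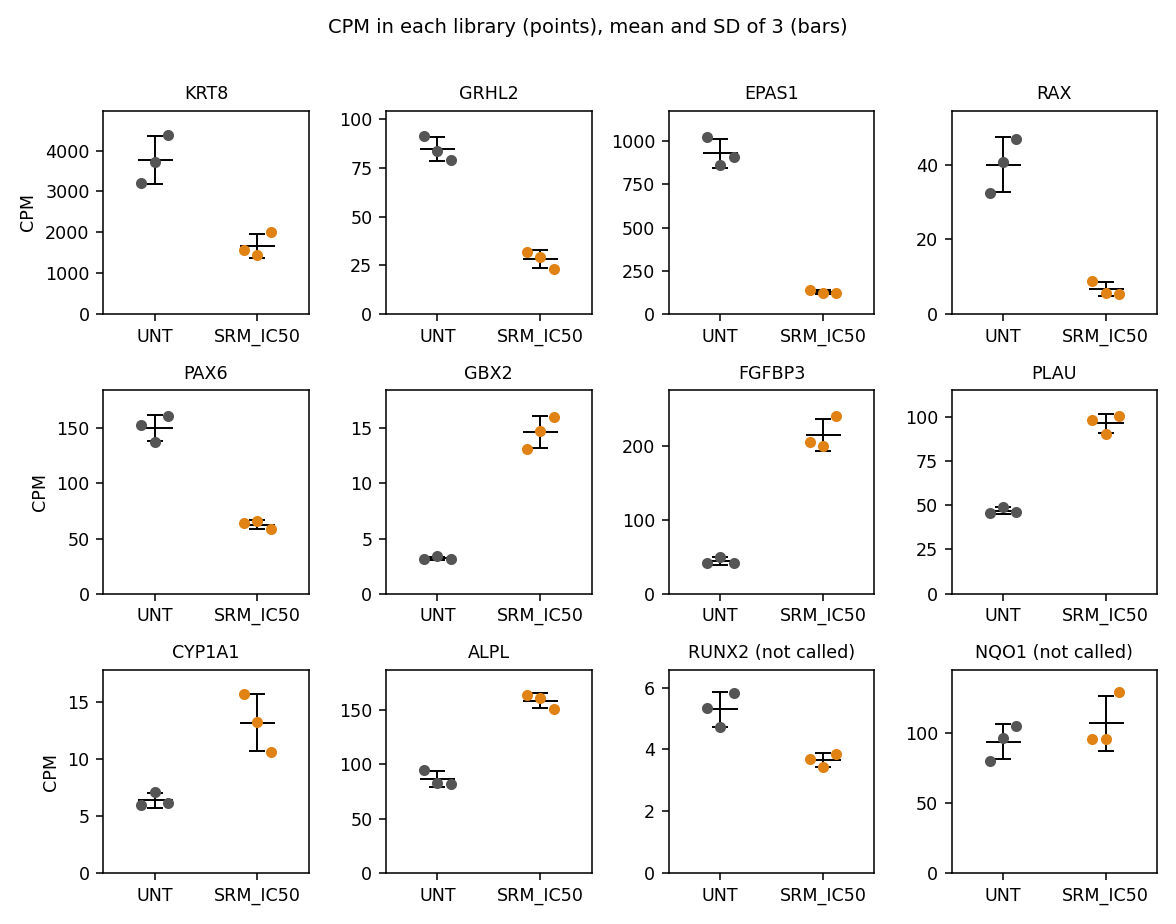
CPM of 12 genes in each of the 3 UNT (grey) and 3 SRM_IC50 (orange) libraries, with the mean and SD of 3 libraries as bars on axes that start at 0. In 11 of the genes the groups do not overlap, RUNX2 among them although it was not called, and in NQO1 they do. All 2240 called genes show such separation, so it adds no support to the calls. How often genes not called show it was not counted.

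BMP pathway genes were more often lower than higher. Of 33 tested genes 10 were lower and 5 higher, with a median of -0.16. The lower number was 6 without SRM_IC50 2, and the higher number 3 without UNT 2 and 2 without SRM_IC50 1 or SRM_IC50 2. GREM1, a secreted BMP inhibitor, was at 116, 122 and 104 CPM in UNT and 220.1, 221 and 217 CPM at SRM_IC50 (log2 0.95, SE 0.0927, edgeR adjusted p = 0.000565). The ligand gene GDF6 (-1.22) and the signal transducer SMAD9 (-1.07) fell. BMP4 was at 82.8, 90.1 and 101 CPM and then 54.3, 55.4 and 64.6 CPM (-0.66), a call lost without SRM_IC50 2 (edgeR adjusted p = 0.0507). ID1, an immediate BMP target, was at 171, 234 and 311 CPM in UNT and 115, 125 and 208 CPM at SRM_IC50, so that the groups overlapped (-0.68, edgeR adjusted p = 0.165). In the Nodal and TGF-beta pathway 5 of 28 tested genes were higher and 6 lower, against 3 higher and 3 lower without UNT 2 and 2 lower without SRM_IC50 2. INHBE (1.94) rose, and TGFBI, a matrix target of TGF-beta, fell from 294, 338 and 359 CPM to 116, 103 and 120 CPM, with TGFB2 at -1.14. Exons of GREM1 overlap exons of an opposite gene.

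WNT genes changed in both directions. Of 51 tested genes 14 were higher and 11 lower, with a median of 0.11. The higher number was 6 without UNT 2 and 7 without SRM_IC50 1 or SRM_IC50 2, and the lower number 7 without UNT 2. WNT5A and WNT11, ligands that act largely without β-catenin, fell. WNT5A was at 32.5, 28.4 and 29.4 CPM in UNT and 14.9, 14.4 and 14.6 CPM at SRM_IC50 (log2 -1.04, SE 0.0974, edgeR adjusted p = 0.000472), and WNT11 had a log2 fold change of -2.36. SP5, a direct target of β-catenin, was at 23.0, 28.1 and 26.8 CPM and then 64.8, 67.6 and 81.6 CPM (1.45), and the receptor gene FZD7 rose as given above. WIF1, a secreted inhibitor, was 2.43 and DKK3 -0.72. AXIN2, the feedback target read most often, was at 69.5, 65.1 and 63.0 CPM in UNT and 89.4, 89.1 and 86.5 CPM at SRM_IC50 (0.42). Its call was lost without UNT 2, UNT 3, SRM_IC50 1 or SRM_IC50 2 (edgeR adjusted p up to 0.0827), and LEF1 was not called (0.18). Exons of WNT11 and LEF1 overlap exons of an opposite gene.

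Of 37 tested FGF and ERK feedback genes 13 were higher and 2 lower, with a median of 0.33, a higher number of 8 without UNT 2, UNT 3 or SRM_IC50 2, and a lower number of 1 without UNT 2 or SRM_IC50 2. FGF2, the ligand that maintains human pluripotent cells, was at 66.6, 71.9 and 59.9 CPM in UNT and 121, 117 and 122 CPM at SRM_IC50 (log2 0.86, SE 0.0966, edgeR adjusted p = 0.000984). FGFR4, a receptor, was at 11.2, 11.6 and 10.7 CPM and then 30.3, 28.0 and 30.7 CPM (1.41). The ERK-induced genes ETV4 (1.27) and DUSP6 (0.73) rose, and FLRT3, a membrane partner of FGF receptors, fell by 1.04. In the Notch list 6 of 30 tested genes were higher and 3 lower, and the higher number was 3 without UNT 1, 1 without UNT 2 or UNT 3 and 2 without SRM_IC50 2. HES3 was at 0.345 to 0.584 CPM in UNT and 3.95 to 7.02 CPM at SRM_IC50 (3.52), and HEY1, a Notch target of mesoderm, fell by 1.00, while NOTCH1 (0.62) and HES1 (-0.18) were not called. Of the Hedgehog genes, GLI1, the transcription factor that reads out the pathway, was at 0.632 to 1.17 CPM in UNT and 2.49 to 4.03 CPM at SRM_IC50 (1.79), and the receptor gene PTCH1 was not called (0.24). Exons of FGF2, ETV4, DUSP6, GLI1 and PTCH1 overlap exons of an opposite gene.

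Of 24 tested retinoid genes 4 were higher (2 without UNT 2 or SRM_IC50 2) and 6 lower, with storage and breakdown enzymes among the higher and synthetic enzymes among the lower. CYP26A1, which degrades retinoic acid, was at 13.4, 13.2 and 11.8 CPM in UNT and 35.3, 35.8 and 43.2 CPM at SRM_IC50 (log2 1.57, SE 0.119, edgeR adjusted p = 0.000196), and LRAT rose as given above. The synthetic enzymes ALDH1A1 and RDH10 (-1.17) fell, the former from 28.9, 31.2 and 40.7 CPM to 11.8, 9.85 and 9.09 CPM. RARB, a receptor that is itself a retinoic acid target, was at 22.2, 18.5 and 19.02 CPM and then 7.05, 8.41 and 6.004 CPM (-1.46). Vitamin D was given to all cultures. Of 11 tested vitamin D genes 4 were lower and 2 higher. The number lower was 2 without SRM_IC50 2, and that higher 1 without UNT 1 and 0 without UNT 2, UNT 3, SRM_IC50 1 or SRM_IC50 2. The receptor gene VDR was below the level needed for testing, with 0.747 to 1.53 CPM in UNT and 0.153 to 0.747 CPM at SRM_IC50. TRPV6, a calcium channel induced by vitamin D, was at 8.95, 6.78 and 7.74 CPM and then 2.01, 1.99 and 1.89 CPM (-1.99). Of 34 tested genes of steroid hormones and nuclear receptors 9 were lower and 6 higher, and the number higher was 2 without UNT 2 or SRM_IC50 1, 1 without SRM_IC50 2 and 1 of 24 by limma-trend on FPKM. CYP11A1 (-2.24), which makes pregnenolone, HSD17B1 (-2.14), STS and the thyroid hormone receptor gene THRB (-1.87) fell. The first 3 belong to steroid production in trophoblast, whose genes fell beside them. Of 23 tested IGF genes 5 were lower and 3 higher, the lower number being 3 without SRM_IC50 2. PAPPA2 fell as given above, whereas its relative PAPPA, which also cleaves IGF-binding proteins, rose (1.07). IGFBP3, the main carrier of IGF in plasma and a member of the amnion and trophoblast list, was at 534, 518 and 615 CPM in UNT and 83.7, 81.2 and 109 CPM at SRM_IC50 (-2.61). IGF2 was at 206, 188 and 196 CPM in UNT and 49.5, 50.4 and 41.4 CPM at SRM_IC50 (-2.06). Exons of RARB, RDH10, TRPV6, CYP11A1, HSD17B1, THRB, PAPPA and IGF2 overlap exons of an opposite gene.

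**Figure D4:**
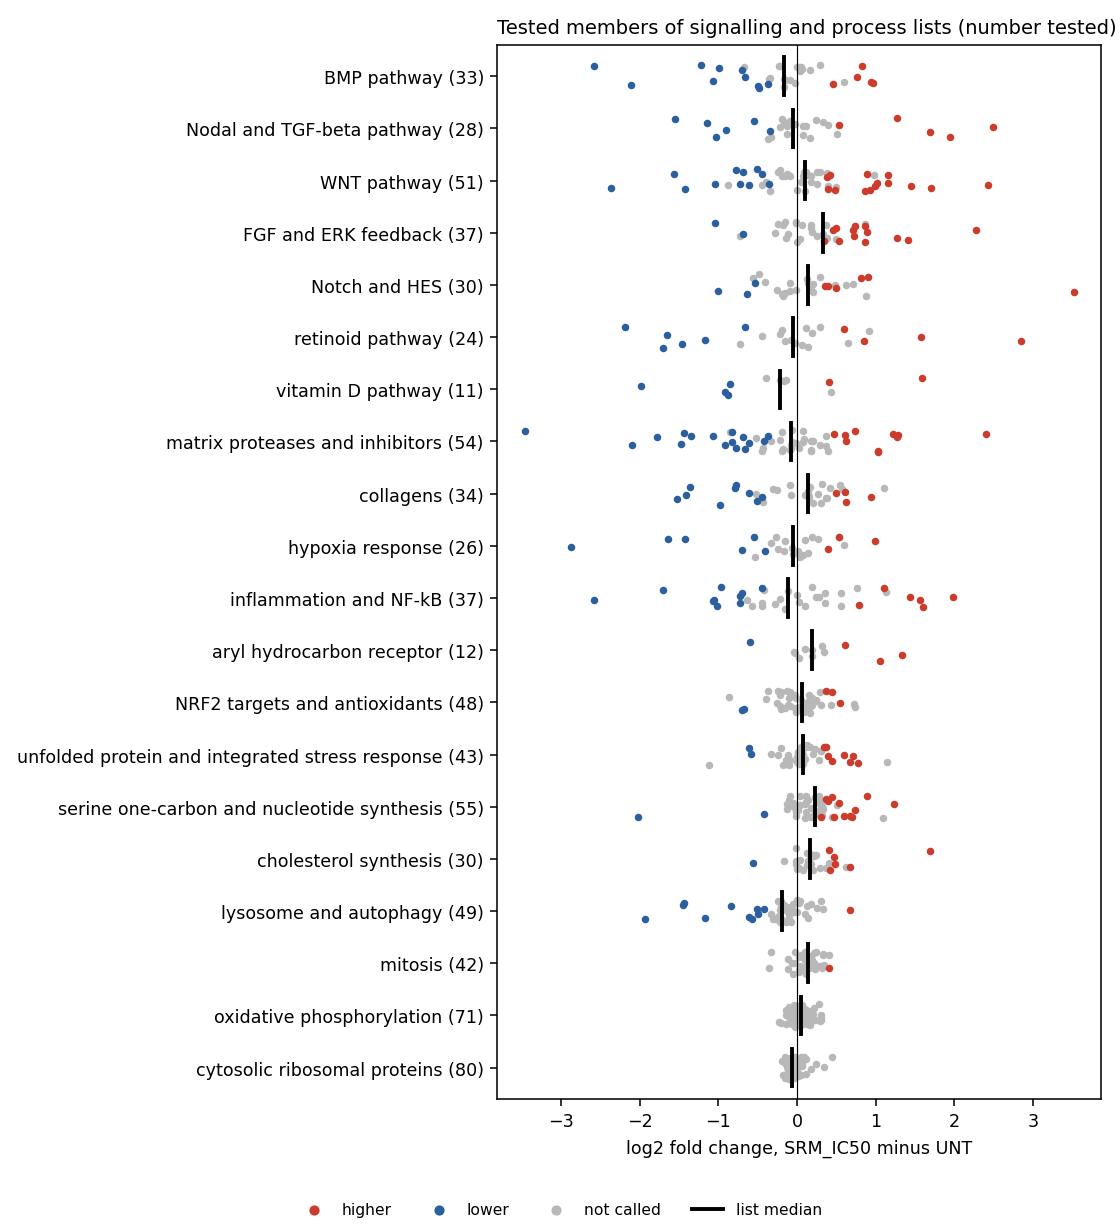
Log2 fold change (SRM_IC50 minus UNT, x axis) of the tested members of 20 signalling and process lists, with members called higher in red, lower in blue, those not called in grey and the list median as a black bar. Developmental signals hold called members on both sides, the FGF and ERK list leans to higher values (median 0.33), and the oxidative phosphorylation and ribosomal protein lists are narrow, with no member called.

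Lists of respiration, ribosomal protein and histone genes held no called member. None of the 71 tested nuclear genes of oxidative phosphorylation, 13 mitochondrially encoded genes, 80 cytosolic ribosomal protein genes or 12 replication-dependent histone genes was called by edgeR. At an unadjusted p under 0.05 the numbers were 1, 0, 0 and 0, and DESeq2 called 0, 0, 0 and 0. Their medians were 0.05, 0.06, -0.07 and -0.09. Spread within groups limits these tests. The summed ribosomal protein level was 73080 to 109700 CPM in UNT and 69900 to 112400 CPM at SRM_IC50. With 1 library left out the median ran from -0.176 to 0.216 for oxidative phosphorylation and from -0.315 to 0.1 for ribosomal proteins. With the replicate number as a block, 8 of the 71 oxidative phosphorylation genes were higher and 2 lower. In that fit 2858 of all 15316 genes tested were higher and 2820 lower, which are larger shares than those of this list. Mitosis genes had 1 of 42 members higher and DNA repair genes 1 of 40, against 4 and 3 without SRM_IC50 3. Both numbers were 0 without UNT 2, UNT 3, SRM_IC50 1 or SRM_IC50 2, and 2 mitosis genes were lower without UNT 1. The DNA replication list had 5 of 46 higher and none lower. That number was 1 without UNT 1, 0 without UNT 2, UNT 3, SRM_IC50 1 or SRM_IC50 2, 12 with DESeq2, 13 with offsets for gene length and 15 with all 15 libraries in the fit. For PCNA, the replication clamp, the libraries were at 236, 306 and 329 CPM in UNT and 275, 306 and 397 CPM at SRM_IC50 (log2 0.17, edgeR adjusted p = 0.621), and the groups overlapped. CDKN1A, the cell cycle inhibitor induced by p53, was at 45.3, 49.0 and 51.1 CPM and then 47.1, 43.9 and 48.8 CPM (-0.06). CDKN1C, an imprinted cell cycle inhibitor, fell from 78.4, 89.4 and 124 CPM to 27.9, 27.2 and 43.0 CPM (-1.58, SE 0.232, edgeR adjusted p = 0.00352). Of 46 tested p53 and apoptosis genes 6 were higher and 1 was lower (11 and 4 with DESeq2), and MDM2 (0.29) and BAX (0.32) were not called. Exons of CDKN1A and MDM2 overlap exons of an opposite gene.

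Among metabolic genes, those of serine, one-carbon and nucleotide synthesis had 12 of 55 higher and 2 lower, with a median of 0.23, and the higher number was 6 without UNT 2 and 7 without SRM_IC50 1 or SRM_IC50 2, and the lower number 1 without UNT 2 or SRM_IC50 2. PSAT1, of serine synthesis, was at 250.4, 258 and 239.8 CPM in UNT and 392.0 to 411 CPM at SRM_IC50 (log2 0.68, SE 0.0868, edgeR adjusted p = 0.00178). MTHFD2, of mitochondrial folate metabolism, was at 92.2, 93.8 and 91.5 CPM and then 133, 137 and 149 CPM (0.60), and both genes had separate and narrow groups. PHGDH, which opens serine synthesis, was not called (0.01). Of 32 tested amino acid transporters 9 were higher and 4 lower. That higher number was 3 without UNT 2, 5 without UNT 3 or SRM_IC50 1 and 4 without SRM_IC50 2. SLC43A1 (1.81) and SLC38A5 (1.32) rose and the arginine transporter gene SLC7A2 fell from 231, 193 and 195 CPM to 68.8, 63.4 and 50.2 CPM. Lysosome and autophagy genes had 10 of 49 lower and 1 higher, with a median of -0.19, and 6 lower without SRM_IC50 2. Cholesterol genes had 6 of 30 higher and 1 lower, and the higher number was 3 without UNT 1 or SRM_IC50 1, 1 without UNT 2 and 2 without UNT 3 or SRM_IC50 2. Exons of MTHFD2 overlap exons of an opposite gene.

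Among genes that respond to particles and stress, the share called ran from 10.4% of NRF2 and antioxidant genes to 33.3% of the aryl hydrocarbon receptor list, against 14.6% over all genes. In the aryl hydrocarbon receptor list 3 of 12 tested genes were higher and 1 lower. CYP1A1, the enzyme it induces most, was at 5.93, 7.12 and 6.12 CPM in UNT and 15.7, 13.2 and 10.6 CPM at SRM_IC50 (log2 1.06, SE 0.168, edgeR adjusted p = 0.00512). The receptor gene AHR fell from 19.6, 19.7 and 18.3 CPM to 12.6, 12.4 and 13.04 CPM, and AHRR, its repressor and target, was at 1.15 to 1.51 CPM and then 1.19 to 2.17 CPM and was not called (0.32). Of 48 tested NRF2 and antioxidant genes 3 were higher and 2 lower. The number higher was 1 without any 1 UNT library or SRM_IC50 2, and the number lower 1 without UNT 2, SRM_IC50 1 or SRM_IC50 2. HMOX1 was at 25.6, 23.9 and 30.8 CPM in UNT and 25.4, 23.5 and 26.2 CPM at SRM_IC50, NQO1 was not called (0.19), and GCLM, of glutathione synthesis, fell (-0.67). Of 30 tested metallothionein, zinc, iron and copper genes 3 were higher (1 without UNT 2 or SRM_IC50 2) and 1 was lower, the latter being SLC40A1. MT2A was at 7.34, 9.25 and 11.2 CPM and then 11.5, 9.90 and 14.6 CPM, so that the groups overlapped (0.36, edgeR adjusted p = 0.299), and MT1X (0.91, edgeR adjusted p = 0.133) was not called. Of 43 genes of the unfolded protein and integrated stress response 8 were higher and 2 lower, the higher number being 3 without any 1 UNT library or SRM_IC50 1 and 4 without SRM_IC50 2, and the lower 1 without UNT 2, UNT 3, SRM_IC50 1 or SRM_IC50 2. DDIT3 (-0.18), ATF4 (0.03), HSPA5 (0.08) and the heat shock gene HSPA1A (0.03) were not called. Exons of AHR, NQO1 and DDIT3 overlap exons of an opposite gene.

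Inflammatory genes went both ways. Of 37 tested members 10 were lower and 6 higher, with a median of -0.12 and a summed level of 547.5 to 565.9 CPM in UNT and 416.5 to 436.1 CPM at SRM_IC50, and the lower number was 6 without SRM_IC50 2. The neutrophil chemokine CXCL5 was at 5.40, 5.34 and 5.82 CPM in UNT and 21.03, 17.1 and 28.1 CPM at SRM_IC50 (log2 1.99, SE 0.193, edgeR adjusted p = 0.000573), and CXCL6 was 1.56. TNFAIP3, an NF-κB target that ends the response, fell from 45.02, 43.1 and 43.4 CPM to 14.8, 13.1 and 12.3 CPM (-1.71), and IL1R1, the interleukin-1 receptor gene, from 15.8, 15.3 and 15.0 CPM to 2.64, 2.54 and 2.49 CPM. LIFR, a receptor of the interleukin-6 family, was -1.05 and PTGES -1.07. CXCL8 had at most 1 count in any library, IL6 (-0.64) and NFKBIA (-0.44) were not called, and of 31 tested interferon genes 3 were higher and 3 lower, with IFIT1 not called (0.26). In the hypoxia list 6 of 26 were lower and 3 higher (1 without UNT 2). EPAS1, NDRG1 (-1.64) and the carbonic anhydrase gene CA12 (-1.42) fell, ADM (0.99) rose, and VEGFA, the most used target, was at 42.9, 33.6 and 32.8 CPM in UNT and 42.1, 40.4 and 34.5 CPM at SRM_IC50 and was not called (0.10). Exons of TNFAIP3, IL1R1, LIFR, IL6 and VEGFA overlap exons of an opposite gene.

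The lower SRM dose, at 0.003 µg/mL, gave the test of a dose difference. In a fit of the 9 UNT and SRM libraries edgeR called 2260 genes higher at SRM_IC50 and 1952 higher at SRM_IC25, which is 27.5% of genes tested, 14.8% higher and 12.7% lower at SRM_IC50. With offsets for GC content the numbers were 1814 and 1743, and with only the 6 SRM libraries 1942 and 1839. List counts between the doses come from the fit of 9 libraries without offsets only. The comparisons with UNT and with SRM_IC25 share the SRM_IC50 libraries, so their values are given side by side and no overlap is counted. Over the 35 genes with the largest folds or CPM differences, the SRM_IC25 libraries overlapped UNT in 27, FGFBP3, EPAS1 and STS among them. They lay wholly below UNT in 6 (LRAT, TM4SF18, PIPOX, GNA14, CXCL5 and FZD7) and above it in 2 (UNC13A and HMGA1). The same was not counted over all genes tested, so these numbers have no background and are not read as a result about the 35 genes. FGFBP3 was at 44.4 ± 4.87 CPM in UNT, 39.3 ± 6.87 CPM at SRM_IC25 and 215.6 ± 21.9 CPM at SRM_IC50 (SD, n = 3), scaled over the 9 libraries. EPAS1 was at 932 ± 83.5, 1000 ± 219 and 127.0 ± 10.7 CPM in the same order, and STS at 134.8 ± 8.57, 132 ± 20.2 and 22.4 ± 0.836 CPM. Between the doses the log2 differences were 2.45 for FGFBP3, -2.98 for EPAS1 and -2.55 for STS. The 35 genes were picked on their SRM_IC50 and UNT values. Their differences between the doses reuse the same SRM_IC50 values and are no separate support. Of the simple epithelium list 30 of 39 were lower and 2 higher than at SRM_IC25, of surface ectoderm 16 of 21 lower and 1 higher, and of the neuron list 15 of 43 higher and 1 lower. RAX (-2.05), PAX6 (-0.70) and SIX3 (-0.72) were lower at the higher dose, and CYP1A1 was higher (1.19). Mitosis genes had 17 of 42 higher than at SRM_IC25, with a median of 0.34, DNA replication genes 18 of 46 (0.23) and ribosome biogenesis and MYC targets 19 of 44 (0.34), with none lower in any of the 3 lists. Exons of FGFBP3 and PAX6 overlap exons of an opposite gene.

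**Figure D5:**
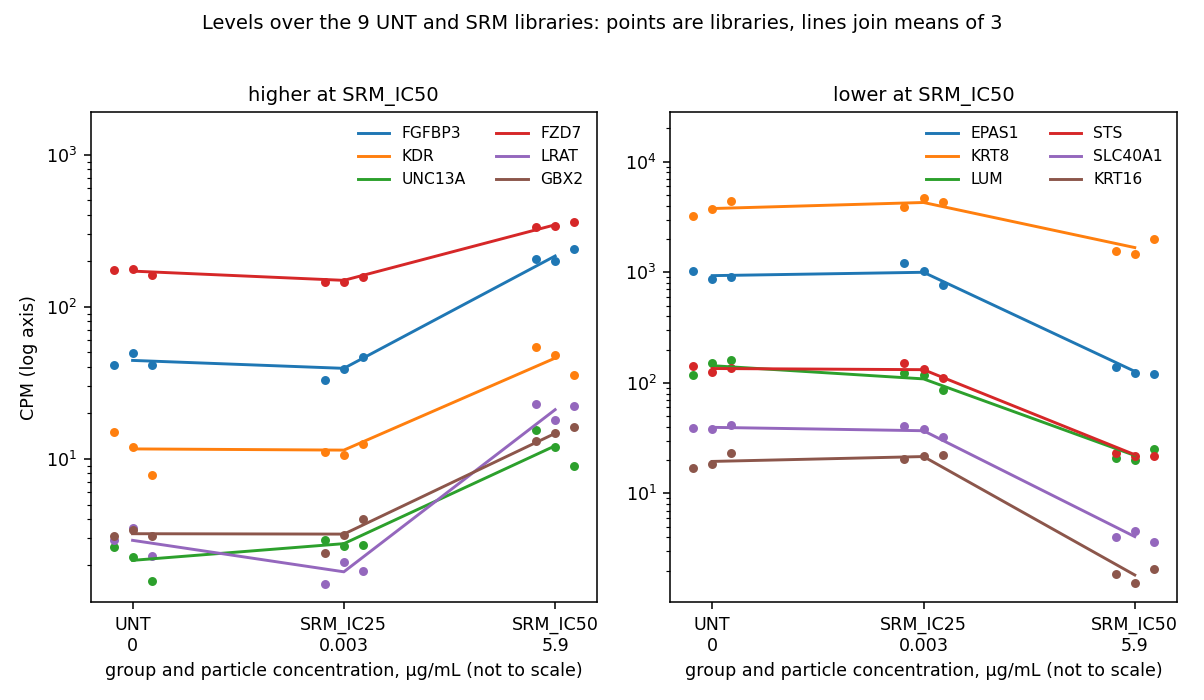
CPM on a log axis in the 3 UNT, 3 SRM_IC25 (0.003 µg/mL) and 3 SRM_IC50 (5.9 µg/mL) libraries, as points with lines through the means, for 6 genes higher (left) and 6 lower (right) at SRM_IC50. In each of the 12 genes the SRM_IC50 libraries lie apart from the 6 other libraries. For the 3 UNT libraries the choice of genes required this.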

How the data were processed

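Polyadenylated RNA was sequenced from libraries made with a directional kit, per the labels' protocols. Counts of reads per gene, in whole numbers, were deposited, and the authors made them with HISAT2 2.2.1, SAMtools 1.10 and featureCounts (Subread 2.0.15) on GRCh38, per the submitters' processing notes. The annotation, strand setting and treatment of multiply mapped reads were not given in the sources used here. The deposited FPKM equal those counts scaled by gene length and library total.

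Counts of 6 libraries were fitted with edgeR 4.0.16 (R 4.3.3; TMM, robust quasi-likelihood, no covariate), and adjusted p-values run over the 15316 genes tested. The dose test used 9 libraries. CPM are TMM-scaled, except those of genes below the filter, which are plain. Coordinates are 1-based (GENCODE 29). All replicate pairs differed by more than counting noise (chi-square per gene at least 5.25), so each library counts once. Floors cover counting error only.

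The comparison, the 74 gene lists and the motifs were chosen with earlier results of these data known. A list is described where at least 5 tested members and 25% of them were called. Named genes are the 12 higher and 12 lower with the largest fold (at least 5 CPM, protein-coding, no overlap between groups, in neither list set aside), the 6 each way with the largest CPM difference, up to 6 called members per described list and the key markers. Alternatives were DESeq2 1.42.0, its size factors, no filter, other sets of libraries, limma 3.58.1 with a trend on log2 of FPKM plus 1 or 0.1, GC and length offsets, and leaving out each library. Some list members are not reported here.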

Additional observations from a re-analysis of the deposited data

How the results depend on the processing

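For SRM_IC50 against UNT (996 higher and 1244 lower), counts ranged from 424 to 1206 higher and from 737 to 1432 lower when 1 library was left out. DESeq2 gave 1291 and 1442. With all 15 libraries in the fit 1512 were higher. Among the 3597 genes that have no neighbour on the other strand closer than 5 kb, fitted alone, 384 were higher and 392 lower. These counts are smaller because fewer genes were tested, but the share called was not smaller. In the main fit 9.51% of these genes were higher and 9.4% lower, against 6.5% and 8.12% over all genes tested. No fit turned the direction of a named gene that it or the main fit called. For named genes called in neither, turns were not counted. Of 258 named calls, 202 held in every fit without 1 library. Limma-trend on FPKM kept 220 of the 229 named calls it could test, with either pseudocount. Length offsets and leaving out both replicate-3 libraries were chosen after seeing the data. They kept 258 and 257 of 258. Of 48 list counts, 25 stayed within 1.5 times without UNT 2, 24 without SRM_IC50 2, 35 on FPKM and 47 with offsets for GC content.

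The labels give the groups the same replicate numbers but no shared culture or day. Deviations of same-numbered libraries correlated at 0.611, 0.0287 and 0.682, and not every library correlated best with its own number (SRM_IC50 2 correlated best with UNT 1, 0.442). With the replicate block, 2858 genes were higher and 2820 lower against UNT, and 3635 higher and 3382 lower between the SRM doses. Of the DNA replication list 31 of 46 were then higher and 1 lower, and of the mitosis list 19 of 42 higher and 2 lower. These counts are to be read against 2858 higher and 2820 lower of 15316 genes tested, not against the shares of the main fit. Depth limits genes near the floor, such as CHGA in UNT.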

Other observations

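Imprinted genes leaned downward at SRM_IC50, with 6 of 27 tested lower and 1 higher and a median log2 fold change of -0.27 (edgeR). H19, a noncoding RNA beside IGF2, was at 1162, 1132 and 1268 CPM in UNT and 271, 247 and 271 CPM at SRM_IC50. PEG3 was not called (-0.36, edgeR adjusted p = 0.0887). Of 53 tested axon guidance genes 10 were lower and 6 higher. That higher number was 1 without UNT 2, 2 without SRM_IC50 1 or SRM_IC50 2 and 13 without SRM_IC50 3. SLIT3 fell from 76.8, 68.0 and 67.0 CPM to 21.9, 20.6 and 15.9 CPM, whereas SLIT2 was not called (-0.03). Among YAP and TEAD targets 8 of 27 were lower and 3 higher (0 without UNT 2 and 1 without SRM_IC50 2), the lower number being 5 without UNT 1 or SRM_IC50 1 and 4 without UNT 2 or SRM_IC50 2. CCN1 (0.16) was not called, while VGLL1 fell by 1.63. Exons of SLIT3, H19 and IGF2 overlap exons of an opposite gene.

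Called genes were spread unevenly over chromosomes and gene types. On chromosome 13, 49 of 282 tested genes were lower (17.4%) and 20 higher (7.09%), against 8.12% and 6.5% over all genes. On chromosome 16, 31 of 696 were lower (4.45%). Of 486 antisense genes 20 were lower (4.12%) and 15 higher (3.09%), and of 428 lincRNA genes 32 were lower (7.48%) and 37 higher (8.64%). These shares carry no test. The median GC content of the longest transcript was 53.1% in genes higher, 47.0% in genes lower and 48.1% in genes not called. The Spearman correlation of the log2 fold change over genes, whose values are not independent, was 0.176 with GC content and -0.012 with length.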
